A study of Mus musculus with 2 samples.

Results

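A set of 10 long non-coding RNA (lncRNA) genes, grouped as RNAs of immune effector functions and inflammation, was followed in mouse spleen: AW112010, Ifngas1, Nron, Ttc39aos1, Mirt1, AI662270, A630023P12Rik, F630028O10Rik, A430093F15Rik and Gm19585. They were chosen by gene name, and all 10 of the 10944 annotated gene names were found, with 29 annotated transcripts and 11 transcripts assembled from the reads under the same names. The CIA group was spleen RNA of mice with collagen-induced arthritis, a model in which joints become inflamed after immunization against type II collagen, and the healthy group was spleen RNA of mice left untreated. Each group was 1 library, titled day 40 in both groups, while the treatment label of the CIA mice places sacrifice 42 days after the first immunization. In what follows, CIA spleen and healthy spleen stand for these 2 libraries. The sources used here do not give the strain, sex, age or number of mice per library. There is therefore no replicate check, every statement compares 2 libraries rather than 2 conditions, and no p-value of a test across mice can be given.

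Long non-coding RNAs act at the locus they are made from, as scaffolds in the nucleus or cytoplasm, or as hosts of microRNAs. In the mouse, Ifngas1 (also Tmevpg1) is transcribed next to Ifng, the gene of interferon gamma, in T helper 1, CD8 and natural killer cells and favours its expression. Nron is a scaffold that keeps the transcription factor NFAT in the cytoplasm, and Ttc39aos1 (lincRNA-EPS) holds back inflammatory genes in macrophages. AW112010 is induced by interferon and inflammatory stimuli in T cells and macrophages. F630028O10Rik is the host transcript of miR-223, a microRNA of neutrophils and other myeloid cells. For AI662270, A430093F15Rik, A630023P12Rik and Gm19585 no function is stated here, and they are described by their neighbours.

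The sequences that identify these RNAs come first. GENCODE places the miR-223 hairpin in an exon of both annotated F630028O10Rik transcripts, and RefSeq (GRCm38.p6) gives the mature strands on the plus strand at chrX:96242842-96242864 for 5p and chrX:96242884-96242905 for 3p. Capitals mark the seed, bases 2 to 8, which pairs with target RNAs, and the strands have different seeds.
mmu-miR-223-5p: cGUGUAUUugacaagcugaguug
mmu-miR-223-3p: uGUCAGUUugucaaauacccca
The first exon of the annotated AW112010 transcript is shown because it lies downstream of where the assembled forms of this gene begin. It covers 179 bases at chr19:11050388-11050566 (GRCm38, minus strand). Capitals mark a match to the interferon-stimulated response element (ISRE, searched on both strands as TTTC, any 2 bases, TTTC). The search was made after the sequence had been seen. The other motifs listed below for the promoters were also searched in this exon and had no match.
AW112010 first exon: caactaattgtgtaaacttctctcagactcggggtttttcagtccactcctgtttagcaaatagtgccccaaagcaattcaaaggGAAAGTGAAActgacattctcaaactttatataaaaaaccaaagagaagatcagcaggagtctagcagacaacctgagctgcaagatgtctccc
The match covers bases 86 to 95 of the exon. Of 134938 GENCODE transcripts, 1.72% held an ISRE match in their first 179 bases.

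Promoters in RefSeq (GRCm38.p6), 250 bases before to 50 after the start, were found for 9 of the 10 genes, all but AI662270. Those of F630028O10Rik (chrX:96239676-96239975, plus strand), Nron (chr2:33805566-33805865, plus strand) and Ifngas1 (chr10:118556476-118556775, minus strand) are printed. The first is the most abundant of the 10 genes in healthy spleen by annotated transcripts, and the others had the highest ratios. Capitals mark matches on either strand to ISRE, GAS (TTCNNNGAA), AP-1 (TGANTCA), NFAT (TGGAAA), NF-kB (GGG, any 2 bases, TTTCC) and CRE (TGACGTCA). The NF-kB and NFAT letters can overlap.
F630028O10Rik promoter: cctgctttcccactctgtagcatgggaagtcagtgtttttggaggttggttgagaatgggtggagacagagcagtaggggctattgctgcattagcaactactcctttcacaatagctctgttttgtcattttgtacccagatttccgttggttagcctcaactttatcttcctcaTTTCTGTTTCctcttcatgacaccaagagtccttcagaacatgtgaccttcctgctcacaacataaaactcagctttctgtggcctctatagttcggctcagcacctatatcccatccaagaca
Nron promoter: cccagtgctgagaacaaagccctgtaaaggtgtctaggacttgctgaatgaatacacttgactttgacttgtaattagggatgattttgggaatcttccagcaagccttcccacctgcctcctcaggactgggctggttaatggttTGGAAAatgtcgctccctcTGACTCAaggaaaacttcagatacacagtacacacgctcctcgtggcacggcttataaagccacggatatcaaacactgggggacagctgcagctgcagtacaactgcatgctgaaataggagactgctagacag
Ifngas1 promoter: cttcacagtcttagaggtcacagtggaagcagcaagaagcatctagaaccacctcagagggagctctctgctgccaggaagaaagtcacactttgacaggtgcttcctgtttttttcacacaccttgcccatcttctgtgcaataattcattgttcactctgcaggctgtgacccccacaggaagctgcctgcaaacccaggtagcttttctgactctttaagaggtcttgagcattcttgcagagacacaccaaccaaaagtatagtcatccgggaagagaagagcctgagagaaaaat
The F630028O10Rik window held 1 ISRE match, that of Nron an NFAT and an AP-1 match, and that of Ifngas1 no match to any of these letters. Among the 9 promoters, AP-1 letters were in 3 (Nron, Ttc39aos1 and Mirt1), against 7.81% of 32851 RefSeq promoters. NFAT letters were in 4 (AW112010, Nron, Mirt1 and A430093F15Rik), against 21.4%, and ISRE letters in 1, against 3.44%. GAS, NF-kB and CRE letters, in 8.3%, 1.63% and 1.79% of all promoters, were in none of the 9. A match of letters is a description and not a binding site.

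Levels are FPKM, fragments per kilobase of transcript and 1000000 fragments, so they can be compared between genes. The annotated sum adds the annotated transcripts of a gene that have values here. The locus sum also adds the assembled transcripts of that name. Values exist for 1 of 2 GENCODE isoforms of AW112010, 3 of 6 of Mirt1 and 2 of 4 of Gm19585. The sums and shares of these genes leave out the other isoforms. Ratios are log2((CIA + 0.1)/(healthy + 0.1)), and a gene was called higher or lower at 2-fold, if either library reached 0.5 FPKM for it. By annotated sums 4 of the 10 genes were 2-fold higher in CIA spleen (AW112010, Ifngas1, Nron and Mirt1) and 2 were lower (Ttc39aos1 and A630023P12Rik), with a median log2 ratio of 0.28. Past the same minimum, 14% of all 2765 annotated genes were 2-fold higher and 4.2% were lower, and their median was 0.30. By locus sums 3 were higher (Ifngas1, Nron and A630023P12Rik) and 1 was lower (Ttc39aos1), with a median of 0.50. Without unstranded single-exon assembled transcripts 2 were higher (Ifngas1 and Nron) and 2 were lower (Ttc39aos1 and A630023P12Rik), and the median was -0.34. For that sum no share or median of all genes is given, so it has no background here. Of 2931 loci with all assembled transcripts added, 13.5% were higher and 4.47% were lower, and their median was 0.29. All 10 genes passed the minimum, but 4 did so in 1 library only, Ifngas1, Nron and Mirt1 in CIA spleen and A630023P12Rik in healthy spleen, so their distance from 1 partly follows from the minimum. Low genes spread more: below 2 FPKM in both libraries 16.6% of annotated genes were 2-fold higher and 5.46% lower, against 10.3% and 2.43% of the more abundant ones.

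**Figure D1:**
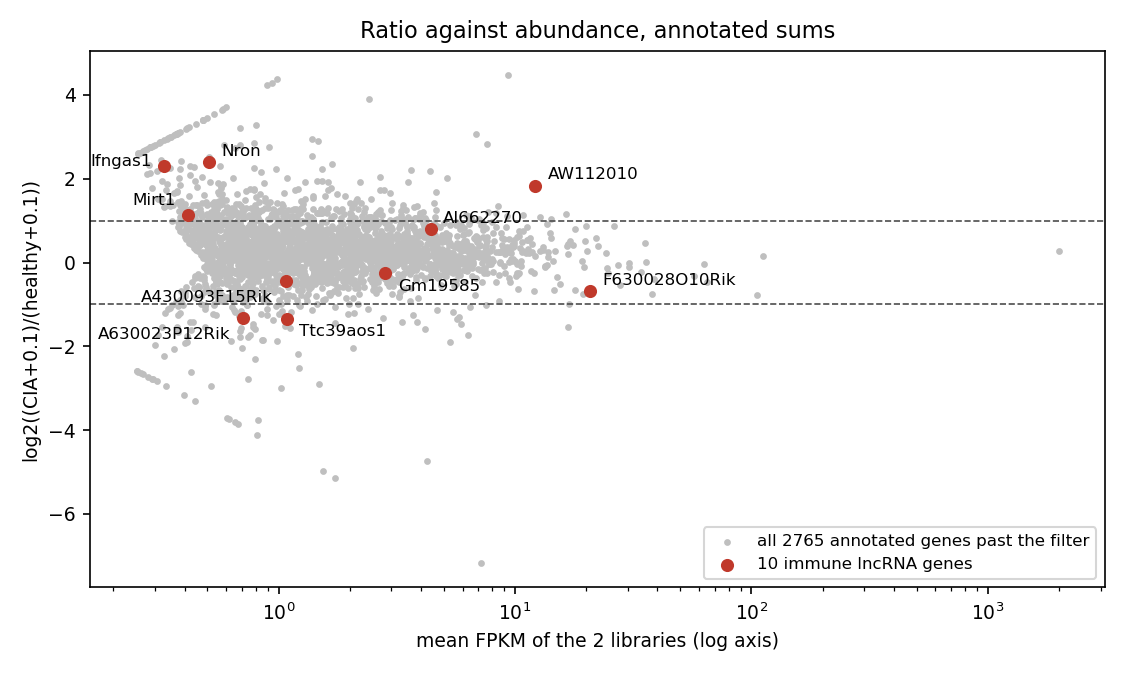
Log2 ratio of the annotated sums (vertical) against mean FPKM of the 2 libraries (log axis) for 2765 annotated genes in grey and the 10 immune lncRNA genes in red, with dashed lines at 2-fold. Ifngas1, Nron and Mirt1 lie at the low-abundance end, and AW112010, at 1.83, is the highest of the more abundant members of the 10.

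Ifngas1, the interferon gamma neighbour, stood at 0.614 FPKM in CIA spleen and 0.0437 FPKM in healthy spleen. The transcript has 5 exons, runs on the minus strand at chr10:118502035-118556525, and its nearest end lies 56.1 kb from Ifng. The ratio of the FPKM values was 14.04, and the log2 ratio with the pseudocount was 2.31. An assembled transcript without strand inside an Ifngas1 intron, 330 bases long, had 1.97 FPKM in CIA and 0.421 FPKM in healthy spleen. Together they gave a locus sum of 2.59 against 0.465 FPKM and a log2 ratio of 2.25. Both the spliced annotated form and the intronic RNA were thus higher in CIA spleen. The amounts were small: FPKM multiplied by length gives 0.688 fragments of annotated Ifngas1 per 1000000 in CIA spleen and 0.0490 in healthy spleen. In the authors' deposited table both transcripts had a p of 1. Neither annotated nor assembled transcripts of other genes lay within 50 kb of Ifngas1, and Ifng itself had no assembled transcript.

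Nron, the NFAT scaffold, stood at 0.919 FPKM in CIA spleen and 0.0929 FPKM in healthy spleen, a ratio of 9.90 and a log2 ratio of 2.40. All of it came from the longest of its 3 annotated isoforms, of 3340 bases, while the other 2 were listed at 0 in both libraries. This corresponds to 3.07 against 0.310 fragments per 1000000. Nron (chr2:33805816-33813591, plus strand) lies within the span of Mvb12b, an endosomal sorting gene on the minus strand, and no Mvb12b exon overlaps its span. No assembled transcript bore the name Nron, so annotated and locus sums are equal.

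AW112010, the interferon-inducible gene, was split between transcripts in opposite ways in the 2 libraries. The annotated transcript, with 3 exons and 770 bases at chr19:11047617-11050566 on the minus strand, stood at 19.1 FPKM in CIA spleen and 5.28 FPKM in healthy spleen, a log2 ratio of 1.83. Assembled transcript MSTRG.19220.2, with 4 exons and 927 bases, stood at 0.000689 against 22.2 FPKM. Assembled transcript MSTRG.19220.3, with 3 exons and 790 bases, stood at 1.31 against 3.47 FPKM. Both assembled forms share a splice junction with the annotated one and begin 5168 bases upstream of it. The locus sum was 20.4 FPKM in CIA spleen and 30.95 FPKM in healthy spleen, a log2 ratio of -0.60. The annotated form thus made up 93.6% of the locus in CIA spleen and 17.1% in healthy spleen, a difference of 76.5 percentage points. Among 86 genes with assembled transcripts and at least 10 FPKM per locus in both libraries, this was the largest difference in either direction. The median absolute difference was 2.84 points and the next largest, of Mir142hg, was -30.5 points. GENCODE has another AW112010 isoform, starting 5242 bases upstream, which has no FPKM value in these data. The sums and shares above therefore leave out that isoform. Its first exon ends 45 bases before the assembled forms begin, so the annotation does not identify them. How reads of the shared exons were divided between the forms cannot be recovered from FPKM values. In the authors' deposited table the annotated form had a p of 0.0114 and a q of 0.196, MSTRG.19220.3 a p of 0.0292 and a q of 0.368, and MSTRG.19220.2 a p of 1.

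**Figure D2:**
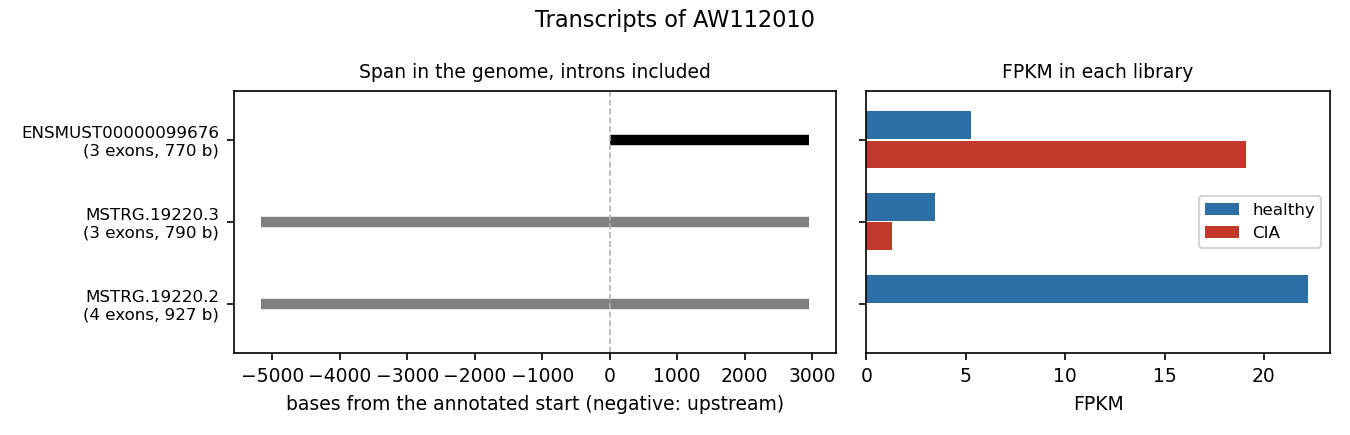
Left, the span of the 3 AW112010 transcripts in bases from the annotated start, introns included (black annotated, grey assembled). Right, their FPKM in each library: the annotated form is the longest CIA bar at 19.1 FPKM and MSTRG.19220.2 the longest healthy bar at 22.2 FPKM.

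F630028O10Rik, the miR-223 host (chrX:96239926-96243636, plus strand), stood at 15.8 FPKM in CIA spleen and 25.5 FPKM in healthy spleen, a log2 ratio of -0.68, within 2-fold. Its isoforms had like ratios, the longer at 11.7 against 19.3 FPKM and the shorter at 4.11 against 6.23 FPKM. The longer held 74.1% of the locus in CIA spleen and 75.6% in healthy spleen, so the split between them was nearly the same. These values are of the host transcript, and mature miR-223 was not measured. The nearest coding gene is Vsig4, a complement receptor gene of tissue macrophages, 3.6 kb away on the minus strand. An assembled transcript in a Vsig4 intron had 0.433 against 1.91 FPKM, with a log2 ratio of -1.91. Of 12 myeloid marker genes, only Lyz2, the lysozyme gene of myeloid cells, had an assembled transcript, listed at 0 in CIA spleen and at 5.04 FPKM in healthy spleen. The part of myeloid cell numbers in the values of F630028O10Rik was not tested, and in bulk RNA fewer cells of a type and less RNA per cell cannot be told apart.

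Ttc39aos1, the repressor of inflammatory genes in macrophages, stood at 0.568 FPKM in CIA spleen and 1.60 FPKM in healthy spleen, a log2 ratio of -1.35. The longer isoform, with 4 exons, had 0.568 against 0.816 FPKM, with a log2 ratio of -0.45. The shorter isoform, of 333 bases, was listed at 0 in CIA spleen and at 0.782 FPKM in healthy spleen, where it made up 48.9% of the locus. The 2-fold call therefore rests on the shorter isoform. A run of 47 exonic bases that it has and the longer one lacks lies at chr4:109404166-109404212 (GRCm38, minus strand) and is printed because these bases are exonic in the shorter isoform alone. They lie in an intron of the longer isoform, so unspliced RNA of that isoform would hold them too.
Ttc39aos1 short isoform: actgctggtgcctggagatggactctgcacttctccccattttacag
The 0.782 FPKM correspond to 0.260 fragments per 1000000. The longer isoform starts at chr4:109406155 and Ttc39a begins 468 bases away on the opposite strand. A transcript assembled inside a Ttc39a intron had 0.545 against 1.69 FPKM, with a log2 ratio of -1.47, and a pair inside Eps15, an endocytic adaptor gene, had 3.82 against 2.26 and 3.37 against 3.12 FPKM.

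Mirt1, named for its induction after myocardial infarction in mice, was 2-fold higher by its annotated sum and not by its locus sum. The annotated sum was 0.604 against 0.223 FPKM, a log2 ratio of 1.12. It joined opposite isoforms: the 10-exon form stood at 0.116 against 0.223 FPKM, and a retained-intron form stood at 0.488 FPKM in CIA spleen and was listed at 0 in the healthy one. Most of the locus lay in assembled transcripts, an 8-exon form of 6759 bases at 1.91 against 1.04 FPKM and an intronic one of 4603 bases on the same strand at 5.10 against 3.33 FPKM. The locus sum was 7.62 against 4.60 FPKM, a log2 ratio of 0.72. The lncRNA gene 4833407H14Rik, on the opposite strand within the Mirt1 span, had 1.08 against 0.564 FPKM, with a log2 ratio of 0.83. An intergenic assembled transcript 42136 bases away, MSTRG.19937.1, stood at 0.128 against 1.67 FPKM.

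AI662270 (chr11:83223576-83226604, plus strand) lies in the Schlafen cluster, 8.4 kb from Slfn3 and 33.4 kb from Slfn4, interferon-responsive genes of lymphocytes and myeloid cells. Its 4 annotated isoforms summed to 5.61 FPKM in CIA spleen and 3.17 FPKM in healthy spleen, a log2 ratio of 0.81. The unspliced retained-intron form held nearly all of it, at 5.03 against 2.93 FPKM. A 4-exon form, whose damaged CIA cell was read as the number that the ratio in the authors' deposited table requires, stood at 0.257 against 0.0797 FPKM. That form shared 491 of its 1428 bases at 100% identity with Gm11427, a transcribed pseudogene whose exons overlap its own on the same strand, so reads over the shared bases cannot be told apart from those of Gm11427. Within 50 kb, MSTRG.6430.1 stood at 1.03 against 1.80 FPKM and MSTRG.6453.1, across the Slfn14 region, at 2.14 against 200.1 FPKM.

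A630023P12Rik (chr5:110514923-110525980, plus strand) turned direction between the sums. Its annotated sum was 0.358 FPKM in CIA spleen and 1.05 FPKM in healthy spleen, a log2 ratio of -1.33. That difference came from 1 of its 5 isoforms, with 3 exons, listed at 0 in CIA spleen and at 0.696 FPKM in healthy spleen. The 4-exon form stood at 0.198 against 0.152 FPKM, the single-exon form at 0.160 against 0.203 FPKM, and the other 2 were listed at 0 in both. A pair of unstranded transcripts inside its introns stood at 2.59 against 0.660 FPKM and 1.86 against 0.460 FPKM. Those intronic values took the locus sum to 4.81 against 2.17 FPKM, a log2 ratio of 1.11. The annotated sum was thus lower in CIA spleen and the unstranded intronic pair higher. Only 1 annotated isoform spans the pair, and it was listed at 0 in both libraries. The pair therefore does not lie in introns of the isoforms that had a value. The nearest coding gene is Galnt9, a glycosyltransferase gene, 18.4 kb away. In the authors' deposited table the first of the pair had a p of 0.00838 and a q of 0.158.

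A430093F15Rik (chr19:10740947-10786043, plus strand) lies between Cd5 and Cd6, which encode related receptors of T cells, 1.9 kb and 3.3 kb away. Its annotated sum was 0.896 against 1.25 FPKM and its locus sum 2.93 against 4.27 FPKM, log2 ratios of -0.44 and -0.53. Within the gene the transcripts were opposed. The longest isoform stood at 0.275 against 0.105 FPKM, retained-intron forms at 0.367 against 0.534 and 0.255 against 0.609 FPKM, and 3 isoforms were listed at 0 in both libraries. One intronic assembled transcript stood at 1.84 against 0.863 FPKM and another, of 279 bases, at 0.190 against 2.16 FPKM. Gm19585 (chr17:52149289-52163484, plus strand) is nearest to Satb1, a chromatin organizer of T cells, 316.0 kb away. Its annotated sum was 2.59 against 3.07 FPKM, a log2 ratio of -0.24, with 0.677 against 1.33 FPKM for the 4-exon form and 1.91 against 1.73 FPKM for the 2-exon form. Intronic transcripts at 3.06 against 1.69 and 1.73 against 1.29 FPKM brought the locus sum to 7.38 against 6.04 FPKM, a log2 ratio of 0.28.

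**Figure D3:**
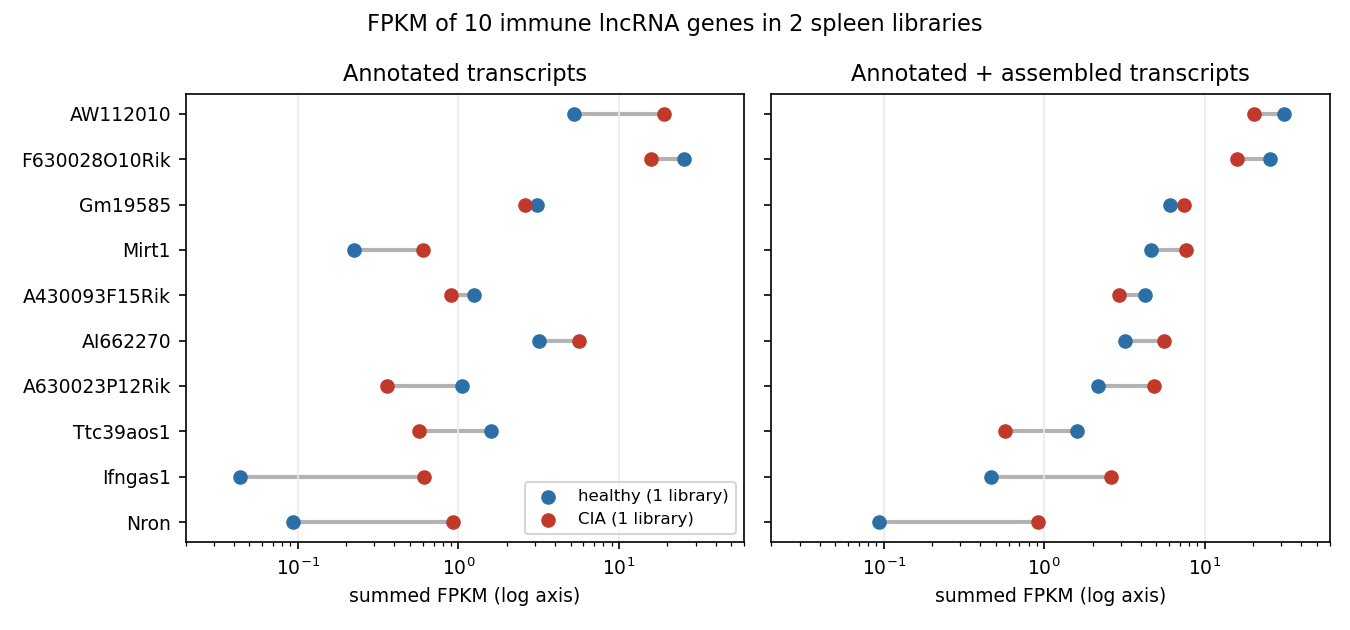
Summed FPKM (log axis) of the 10 genes in the healthy (blue) and CIA (red) library, for annotated transcripts on the left and with assembled transcripts added on the right. The order of red and blue reverses between the panels for AW112010, A630023P12Rik and Gm19585.

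In healthy spleen the order of the annotated sums ran from F630028O10Rik at 25.5 FPKM through AW112010, AI662270, Gm19585, Ttc39aos1, A430093F15Rik, A630023P12Rik, Mirt1 and Nron to Ifngas1 at 0.0437 FPKM. In CIA spleen AW112010 was first and A630023P12Rik last, while Ttc39aos1 went from place 5 to 9 and Nron from 9 to 5. With no spread between mice, neighbours in these orders cannot be separated. Adding assembled transcripts reversed the sign of the ratio for 3 of the 6 genes that have them, against 26.7% of 303 genes. Of these 3, A630023P12Rik and Gm19585 kept the sign of their annotated sum when unstranded single-exon transcripts were left out, and AW112010 did not. Of the 4 such genes that were 2-fold apart by annotated sum, 2 took the opposite sign, AW112010 and A630023P12Rik, against 21.4% of 70 genes. Ifngas1 was 2-fold higher by both sums. Nron, 2-fold higher, and Ttc39aos1, 2-fold lower, have no assembled transcripts, so their annotated and locus sums are the same numbers.

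**Figure D4:**
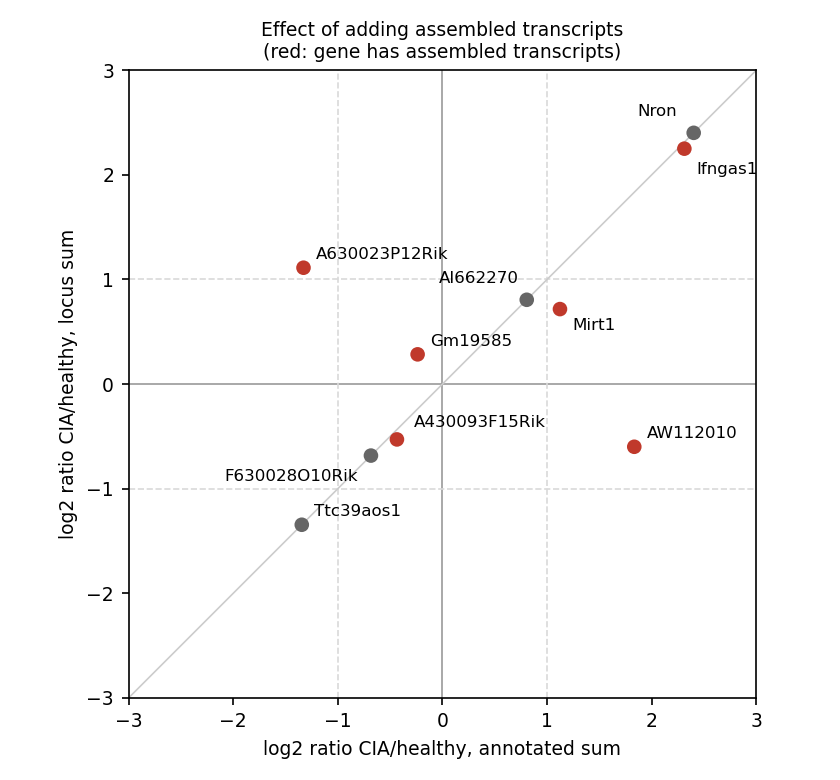
Log2 ratio of each gene by locus sum (vertical) against that by annotated sum (horizontal), with dashed lines at 2-fold and red points for genes that have assembled transcripts. AW112010, at 1.83 and -0.60, and A630023P12Rik, at -1.33 and 1.11, lie furthest from the diagonal.

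Transcript by transcript, 13 of the 29 annotated isoforms passed the minimum, 3 of them 2-fold higher and 2 lower in CIA spleen, against 15.7% and 6.13% of 3068 annotated transcripts. Of the 29, 8 were listed at 0 in both libraries, 3 at 0 in CIA spleen only and 1 in healthy spleen only. Of the 8 intronic assembled transcripts, 7 without strand, 4 were 2-fold higher (those of Ifngas1 and A630023P12Rik and 1 of A430093F15Rik) and 1 was lower, against 15.6% and 10.3% of 12558 intronic transcripts. Of 3 that share a splice junction, none was 2-fold higher and both AW112010 forms were lower, against 18.8% and 13.9% of 656. Of the 40 transcripts, 3 were marked significant in the authors' deposited table, the annotated AW112010, MSTRG.19220.3 and 1 intronic transcript of A630023P12Rik, against 1.29% of annotated and 6.31% of assembled transcripts. The authors' deposited table gave a p of 1 to 30 of the 40 and a q below 0.05 to none.

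**Figure D5:**
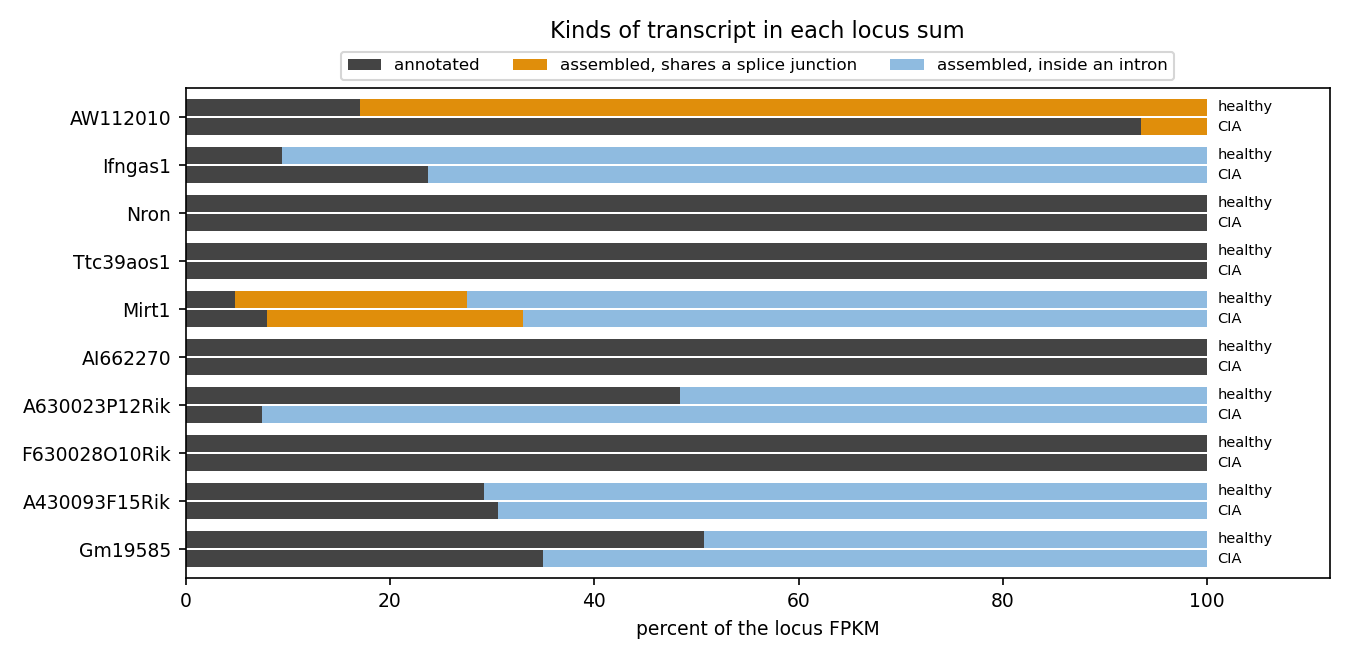
Percent of each locus sum held by annotated (dark), junction-sharing assembled (orange) and intronic assembled (light blue) transcripts, with the healthy bar above the CIA bar for each of the 10 genes. The dark share of AW112010 is 17.1% in healthy and 93.6% in CIA spleen, and Nron, Ttc39aos1, AI662270 and F630028O10Rik are dark throughout.

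A second list held 28 lncRNAs with known or proposed roles in immune or stress responses, of which 23 were in the table and 17 passed the minimum. By annotated sums 3 of these were 2-fold higher and 1 was lower in CIA spleen, with a median log2 ratio of 0.01. Of all annotated genes 14% were higher and 4.2% lower, with a median of 0.30. By locus sums the same 3 were higher and 0 were lower, against 13.5% and 4.47% of all loci. The higher ones were Mir17hg, the miR-17 cluster host (4.53 against 1.36 FPKM), Bach2os, antisense to the lymphocyte factor gene Bach2 (2.81 against 1.19 FPKM), and Dubr (5.65 against 2.73 FPKM). Mir142hg, the miR-142 host, was listed at 0 against 14.3 FPKM and was 42.1 against 46.9 FPKM as a locus sum, another case in which assembled forms carried the gene. The most abundant by annotated sums were Malat1 (2185 against 1798 FPKM), Tug1 (26.7 against 27.9 FPKM) and the snoRNA host Gas5 (22.8 against 33.0 FPKM), all within 2-fold.

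The files hold no mRNA levels, so cell type markers could be examined only through RNA assembled inside their genes. Of 12 T cell genes 5 had such transcripts, summing to 143.2 FPKM in CIA and 62.5 FPKM in healthy spleen, and 3 of the 5 were 2-fold higher, Lef1 (48.7 against 17.1 FPKM), Themis (32.8 against 12.9 FPKM) and Bcl11b (24.1 against 10.2 FPKM). Of 12 B cell genes 5 had them, summing to 372.2 against 235.2 FPKM, with Fcer2a 2-fold higher (6.70 against 3.13 FPKM) and Pax5 at 54.3 against 30.4 FPKM. Of 12 erythroid genes 4 had them, summing to 104.5 against 133.9 FPKM, with none 2-fold apart, among them Gata1 at 4.39 against 5.89 FPKM. None of 12 natural killer and cytotoxic genes had any, Ifng, Tbx21 and Prf1 included, so natural killer cell RNA could not be followed. By summed assembled transcripts, 10.6% of 4339 genes were 2-fold higher and 9.29% were lower, and their median was 0.20. RNA from inside these T and B cell genes thus summed higher in CIA spleen. The 10 genes went both ways, and the part of cell composition in their values was not tested.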

How the data were processed

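RNA of 2 spleen libraries, 1 of CIA mice and 1 of healthy mice, had been extracted with TRIzol and depleted of ribosomal RNA, per the labels' protocols. StringTie is named in the submitters' processing notes. No aligner, strand setting or statistical test is named in the sources used here. FPKM values per transcript were deposited by the authors in 2 tables, with 0.0001 in place of 0, which was read as 0. The authors also deposited a ratio (fold), its log2, a p-value and a q-value, per the file headers. The ratio equalled the quotient of the FPKM values within 0.0001 for all 32012 transcripts, 2 of them with a damaged CIA cell that was filled by this equality. Exon numbers and lengths are other columns the authors deposited. All 15172 annotated transcripts had GENCODE M21 (GRCm38) coordinates, which gives the build.

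FPKM was summed per gene name over annotated transcripts (annotated sum) or over annotated and assembled ones (locus sum). The pseudocount was 0.1 FPKM, which understates ratios of low genes, the minimum 0.5 FPKM in either library, and the size rule 2-fold. The depth is unknown, so no counting interval is given. The genes, lists and motifs were chosen with earlier results of these data known. All 10 genes and their neighbours within 50 kb with at least 1 FPKM are named. Of the second lncRNA list, those with at least 1 FPKM and 2-fold apart and the 3 most abundant are named, and of each marker list the 2 genes of largest ratio, except 1 that is not reported here. Bcl11b, Ifng, Tbx21 and Prf1 were named after their values were seen. Copies were sought with blastn 2.17.0. Python 3.11.15, numpy 2.4.6, pandas 2.3.3 and matplotlib 3.10.9 were used.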

Additional observations from a re-analysis of the deposited data

How the results depend on the processing

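No paired analysis was possible because there was only 1 library in each group, and no library could be left out. With a pseudocount of 1 FPKM, 1 of the 10 genes was higher and 0 lower by either sum (AW112010 by annotated, Ifngas1 by locus sum). All genes gave 59 higher and 26 lower of 2765 by annotated sums, and 80 and 36 of 2931 by locus sums. By either sum 1 gene of the second list was higher. Under the 4-fold rule 2 of the 10 were higher and 0 lower by annotated sums and 0 lower by locus sums. All genes then gave 85 and 34 of 2765, or 89 and 38 of 2931 by locus sums. The second list gave 0 higher by annotated and 1 by locus sums. With a minimum of 1 FPKM 7 of the 10 were left by annotated sums, 1 of them higher and 2 lower. By locus sums 9 were left, 2 of them higher and 1 lower. For all genes the counts were 219 and 69 of 1924, or 240 and 87 of 2152 by locus sums. At that minimum Ifngas1, Nron and Mirt1 dropped out by annotated sums, and Nron also by locus sums. With no minimum all genes gave 788 and 324 of 10944, or 783 and 334 of 10944 by locus sums. Centring at 0.30, the annotated transcripts' median, gave 202 higher and 194 lower of 2765, or 203 and 206 of 2931 by locus sums. Such centring moves the median to about 0, so near-equal counts were largely set in advance and are no check of the excess. The excess of higher genes holds only for the FPKM scaling as given. Centring left 1 gene of the second list higher by either sum. It also turned Gm19585 by locus sum to -0.013 and brought Mirt1 by annotated sum to 0.83 and A630023P12Rik by locus sum to 0.82, both within 2-fold. Adding assembled transcripts turned AW112010 to -0.60, also when unstranded single-exon transcripts were left out, A630023P12Rik to 1.11 and Gm19585 to 0.28. Without unstranded single-exon transcripts A630023P12Rik kept -1.33 and Gm19585 -0.24. The median over the 10 genes was then -0.34, with no median of all genes to set beside it. The cause of these turns was not tested. A pseudocount cannot change the sign of a ratio, only its size. The sizes of Ifngas1, Nron and Ttc39aos1 were lowest at a pseudocount of 1 FPKM, 0.63, 0.81 and -0.73 by annotated sums. Under the centring Ifngas1 and Nron kept their direction, while Ttc39aos1, already lower, could not turn. Ifngas1 also kept its direction by locus sum. Nron and Ttc39aos1 have no assembled transcripts, so adding such transcripts was no check of them. Values below about 1 FPKM are limited by an unknown number of fragments.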
